A study of Homo sapiens with 18 samples.

Results

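The genes described here are 35 genes of cholesterol and fatty acid synthesis, of sterol transport and of their common regulators, listed by name and role. All 35 were listed in the count and FPKM tables of both time points, among 22136 genes counted after 2 days and 21276 after 7 days. By role, 18 make sterols (ACAT2 to DHCR7 in pathway order), 9 make, elongate or desaturate fatty acids, 5 regulate the sterol regulatory element binding proteins (SREBPs), and 3 move sterols (STARD4, ABCA1 and ABCG1).

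The cells were C4-2B, an established human prostate cancer cell line, labelled as wild type in genotype and grown in RPMI with fetal bovine serum. The paper cites reports of mutations in BRCA2 and further genes of homologous recombination, a DNA repair route, in this line. It describes the line as not functionally deficient in that repair. Poly(A) RNA was sequenced from cells given DMSO (vehicle) or 0.1 µM VIC-1911, an inhibitor of the mitotic kinase AURKA, for 2 days, and from cells given DMSO, 0.1 µM VIC-1911, 1 µM olaparib (an inhibitor of the DNA repair enzymes PARP1 and PARP2) or the combination of both drugs for 7 days. Each of the 6 groups had 3 libraries, 18 in all, every library came from the same cell line, and the labels do not say whether libraries of a group came from separate cultures, so p-values measure the spread between these libraries. The comparisons ask what AURKA inhibition did to these genes early and late, and how AURKA and PARP inhibition together compared with either alone.

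Cells make cholesterol from acetyl-CoA through mevalonate and squalene, and make fatty acids from acetyl-CoA through malonyl-CoA. The transcription factor SREBP-2, encoded by SREBF2, mainly drives the sterol genes, and SREBP-1, encoded by SREBF1, mainly drives the fatty acid genes. When sterols are plentiful, INSIG proteins hold the escort protein SCAP and its SREBP cargo in the endoplasmic reticulum, and INSIG1 is itself an SREBP target. The liver X receptors (LXRs) act as oxysterol sensors that induce the cholesterol exporters ABCA1 and ABCG1 and also SREBF1.

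RefSeq promoter windows, from 250 bases before to 50 bases after the annotated gene start, were matched for 30 of the 35 members. The windows of the 4 genes with the lowest log2 fold changes under the combination, SCD, ELOVL6, SREBF2 and INSIG1, are printed 5′ to 3′ on the strand of the gene (GRCh38.p14), with capitals marking matches on either strand to a sterol regulatory element (TCACNCCAC, which includes TCACCCCAC), the NF-Y box (CCAAT) or the E-box (CACGTG). SREBF2 lies on chr22:41832855-41833154, plus strand, and was the only one of the 30 with a sterol regulatory element match.
SREBF2: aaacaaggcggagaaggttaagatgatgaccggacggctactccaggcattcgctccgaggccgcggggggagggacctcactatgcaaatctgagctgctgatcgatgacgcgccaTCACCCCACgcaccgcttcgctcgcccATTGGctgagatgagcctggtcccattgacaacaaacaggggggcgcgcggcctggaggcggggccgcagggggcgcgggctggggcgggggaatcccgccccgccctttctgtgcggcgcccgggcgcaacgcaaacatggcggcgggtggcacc
INSIG1 lies on chr7:155297628-155297927, plus strand.
INSIG1: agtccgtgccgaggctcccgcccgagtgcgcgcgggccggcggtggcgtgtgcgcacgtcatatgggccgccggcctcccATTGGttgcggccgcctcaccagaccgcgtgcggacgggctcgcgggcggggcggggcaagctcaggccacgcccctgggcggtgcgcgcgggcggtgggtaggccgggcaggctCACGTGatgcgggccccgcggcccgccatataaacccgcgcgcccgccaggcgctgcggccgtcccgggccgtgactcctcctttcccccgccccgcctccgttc
SCD lies on chr10:100346983-100347282, plus strand.
SCD: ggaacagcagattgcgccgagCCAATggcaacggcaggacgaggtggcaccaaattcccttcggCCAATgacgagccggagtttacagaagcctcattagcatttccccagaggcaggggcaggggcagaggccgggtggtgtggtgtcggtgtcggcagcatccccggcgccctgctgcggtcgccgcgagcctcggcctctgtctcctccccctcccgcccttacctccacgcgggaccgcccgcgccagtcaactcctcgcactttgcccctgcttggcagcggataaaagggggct
ELOVL6 lies on chr4:110198566-110198865, minus strand, and held no match.
ELOVL6: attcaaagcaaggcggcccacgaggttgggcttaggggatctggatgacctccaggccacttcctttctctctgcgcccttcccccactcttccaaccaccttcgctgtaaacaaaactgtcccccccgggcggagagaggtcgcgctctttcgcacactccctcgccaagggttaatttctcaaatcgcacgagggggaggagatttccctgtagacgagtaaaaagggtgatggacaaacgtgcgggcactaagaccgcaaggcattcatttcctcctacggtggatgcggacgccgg

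A CCAAT match was present in 22 of the 30 members (73.3%), against 39.7% of the 27305 genes with a window. CACGTG was present in 6 of the 30 (20%), against 8.77% of all genes, and TCACNCCAC in 1 of the 30 (3.33%), against 1.39%. The strict form TCACCCCAC accounted for that same match and was found in 0.535% of all genes, and the LXR element (direct repeat with a 4-base spacer) was in none of the 30 and in 0.0256% of all genes. The windows are short, and a match describes letters only.

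Between 3245273 and 7184420 reads per library were counted on genes after 2 days and between 4967931 and 19684208 after 7 days. At 2 days the vehicle libraries held 3245273 to 4545256 and the VIC-1911 libraries 5107326 to 7184420. Every VIC-1911 library was thus deeper than every vehicle library at that time. All 7 luminal prostate markers (KLK3, KLK2, TMPRSS2, FOLH1, HOXB13, KRT8 and KRT18) were detected in every group, and their summed level was 2242 to 2575 FPKM after 2 days. After 7 days it was 4147 to 4189 FPKM under vehicle, 2828 to 3001 under VIC-1911, 2559 to 2670 under olaparib and 2527 to 2700 under the combination, so that it was lower in each drug group, in which many of the genes below also moved, and its part in those results was not tested. The highest luminal marker made up most of this sum, with a 7-day mean of 2.68e+03 FPKM under vehicle and 1.81e+03 under VIC-1911. It was 1.66e+03 under olaparib and 1.67e+03 under the combination. The lowest marker mean was 100, 104, 83.2 and 71.3 FPKM in the same groups. Summed markers of fibroblasts stayed at or under 2.42 FPKM, of endothelium at or under 0.754, of adipocytes at or under 0.476 and of leukocytes at or under 0.182. In bulk RNA, fewer cells of a kind and less RNA per cell cannot be told apart. The library numbers of the 7-day vehicle and VIC-1911 samples form one run and those of olaparib and the combination form another, so olaparib and the combination cannot be told apart from that run when set against vehicle or VIC-1911, whereas the VIC-1911 libraries share the vehicle run and the combination libraries that of olaparib. The 7-day vehicle libraries were not alike for these genes: the median fatty acid gene stood at 0.11, -0.13 and -0.03 (log2 FPKM relative to the vehicle mean) in vehicle libraries 1, 2 and 3, and the median sterol gene at 0.07, -0.07 and -0.00.

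VIC-1911 lowered 3 of 5 SREBP regulators and 5 of 9 fatty acid genes after 2 days, when 7.19% of all genes tested were lower. After 7 days of VIC-1911 the fatty acid synthase gene FASN was higher than under vehicle, as were 8 of 18 sterol genes (26.6% of all genes tested), while 4 sterol genes were lower (25.8% of all genes). The combination lowered SREBF2, INSIG1, SCD, ELOVL6, FADS1 and FADS2 while leaving HMGCS1, FDFT1, IDI1, ACAT2 and STARD4 above vehicle. A gene passed when its adjusted p in edgeR's quasi-likelihood test, with the Benjamini-Hochberg method over all genes tested, was under 0.05, and log2 fold changes are given ± the standard error (SE) of the fit. After 2 days of VIC-1911, 4 of the 34 members tested were higher (11.8%, against 7.50% of all 12241 genes tested) and 10 were lower (29.4%, against 7.19% of all genes). ABCA1 was too low to be tested at that time. No member rose by the 1.5-fold limit used for 2 days, which 0.825% of all genes did.

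After 7 days one set of 3 vehicle libraries serves all comparisons with vehicle. VIC-1911 raised 14 of 35 members (40.0%, against 26.6% of 14409 genes) and lowered 8 (22.9%, against 25.8%). Olaparib raised 8 (22.9%, against 28.1%) and lowered 16 (45.7%, against 25.9%). The combination raised 5 (14.3%, against 28.6%) and lowered 19 (54.3%, against 28.0%). The median member stood at a log2 fold change of 0.10 under VIC-1911, -0.06 under olaparib and -0.23 under the combination, where the medians over all genes tested were -0.005, 0.010 and 0.005. At the 2-fold limit used for 7 days, 3 members were lower under the combination (SCD, ELOVL6 and SREBF2), against 4.0% of all genes, and 1 under olaparib (SCD), against 3.53%. Under VIC-1911 no member was lower by that much (3.43% of all genes). Above that limit was 1 member, ABCA1, under VIC-1911 (3.46% of all genes) and under olaparib (3.63%). ABCA1 was barely detected, and these calls were lost under 7 and 6 alternatives. INSIG1 stopped just short of the limit under the combination, with a fold of 0.501, and the next members were FADS1 at 0.573 and CYP51A1 at 0.601. The heat map of all members sets these comparisons side by side.

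**Figure D1:**
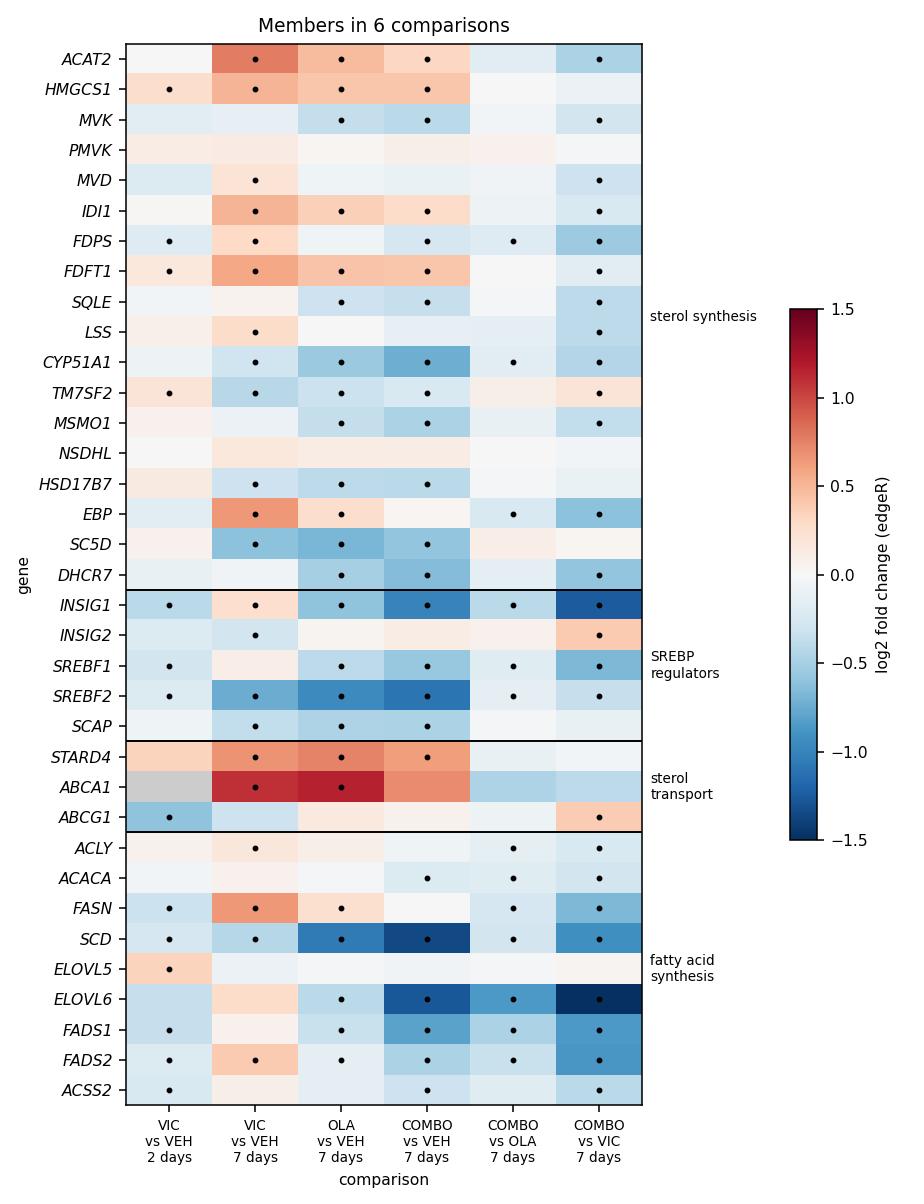
Heat map of log2 fold changes (edgeR) of the 35 members, one row per gene grouped by role, in 6 comparisons (columns; VEH vehicle, VIC VIC-1911, OLA olaparib, COMBO combination). Red is higher and blue lower in the first-named group, a dot marks an adjusted p under 0.05 and grey a gene not tested, with values past -1.5 in the end colour; the combination columns are mostly blue, with 19 of 35 members lower against vehicle and 5 higher.

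SREBF2, on chromosome 22 from 41833105 to 41907306 (GRCh38), was the regulator with the lowest log2 fold change against vehicle in each 7-day drug group. Its level was 96.3, 92.7 and 97.6 FPKM in the 3 vehicle libraries after 7 days, 60.3, 57.9 and 58.8 under VIC-1911, 52.0, 49.3 and 49.6 with olaparib and 47.2, 44.6 and 43.1 with the combination. No drug library reached the lowest vehicle library, and the groups followed one another without overlap from vehicle down to the combination. SREBF2 was 1.67-fold lower under VIC-1911 (log2 fold change -0.74 ± 0.04, adjusted p = 6.1e-15), 1.93-fold lower under olaparib (log2 fold change -0.95 ± 0.04, adjusted p = 1.9e-17) and 2.13-fold lower under the combination (log2 fold change -1.09 ± 0.04, adjusted p = 4.5e-19). The neighbours in that order also differed, by -0.20 ± 0.04 for olaparib against VIC-1911 (adjusted p = 0.00073) and -0.14 ± 0.04 for the combination against olaparib (adjusted p = 0.0276), the latter lost without olaparib library 1 (0.121), olaparib library 3 (0.0717) or combination library 3 (0.165). After 2 days the levels were 67.7, 63.1 and 69.8 under vehicle and 58.2, 56.1 and 58.0 under VIC-1911, a smaller decrease (log2 fold change -0.21 ± 0.05, adjusted p = 0.00118). The 7-day VIC-1911 effect less the 2-day effect was -0.54 ± 0.06 (adjusted p = 1.2e-09).

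INSIG1, which retains SCAP in the endoplasmic reticulum (chromosome 7, 155297776 to 155310235), moved in both directions. After 7 days its level was 62.6, 46.2 and 59.7 FPKM under vehicle and 69.2, 66.6 and 70.2 under VIC-1911. Under olaparib it was 38.5, 35.6 and 38.3, and under the combination 30.7, 26.5 and 26.8. All VIC-1911 libraries lay above the vehicle libraries, all olaparib libraries below them, and all combination libraries lower still. The log2 fold changes from vehicle were 0.25 ± 0.07 under VIC-1911 (adjusted p = 0.00323) and -0.60 ± 0.07 under olaparib (adjusted p = 4.9e-08), and the combination was at 0.501 of the vehicle level (SE 0.07 on the log2 scale, adjusted p = 1.1e-12). The increase under VIC-1911 rested on vehicle library 2, the lowest of its group, since the adjusted p was 0.142 without it. After 2 days the level was 68.2, 68.5 and 75.3 under vehicle and 50.5, 53.8 and 57.3 under VIC-1911, a decrease with no overlap (log2 fold change -0.40 ± 0.05, adjusted p = 4.4e-07). INSIG2, its paralog, was far lower in FPKM.

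INSIG2 (chromosome 2, 118088452 to 118110997) had 4.48, 5.13 and 5.12 FPKM under vehicle and 3.90, 4.28 and 4.42 under VIC-1911 after 2 days (log2 fold change -0.20 ± 0.15, adjusted p = 0.399). At 7 days INSIG2 had 5.57, 4.57 and 5.88 under vehicle, 4.90, 3.69 and 4.77 under VIC-1911, 5.91, 4.90 and 5.77 with olaparib and 6.40, 5.04 and 5.41 with the combination. In each 7-day group library 2 was the lowest, and all groups overlapped vehicle. Against vehicle, INSIG2 passed under VIC-1911 alone (log2 fold change -0.28 ± 0.12, adjusted p = 0.0494), a call lost under 10 of the alternatives run, and stood at 0.04 ± 0.12 under olaparib (adjusted p = 0.798) and 0.11 ± 0.11 under the combination (adjusted p = 0.411). The combination was higher than VIC-1911 (log2 fold change 0.39 ± 0.11, adjusted p = 0.00663), a call lost in both limma fits (0.0591 and 0.0621) and without VIC-1911 library 2 (0.074) or combination library 1 (0.0614).

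SREBF1 (chromosome 17, 17810399 to 17837002), which overlaps RAI1 on the other strand, was the most abundant of the 5 regulators in FPKM. After 2 days it had 208, 201 and 211 FPKM under vehicle and 164, 162 and 177 under VIC-1911. The 7-day levels were 204, 167 and 177 under vehicle, 202, 203 and 202 under VIC-1911, 140.5, 141 and 141 with olaparib and 131, 116 and 122 with the combination. Vehicle and VIC-1911 overlapped after 7 days, and the olaparib and combination libraries lay below both. SREBF1 fell after 2 days (log2 fold change -0.27 ± 0.04, adjusted p = 1.1e-05), was at 0.10 ± 0.05 after 7 days of VIC-1911 (adjusted p = 0.0937), and fell under olaparib (log2 fold change -0.39 ± 0.05, adjusted p = 1.9e-07) and the combination (log2 fold change -0.57 ± 0.05, adjusted p = 9.4e-11). SCAP, the escort of SREBPs to the Golgi, fell from 41.0 ± 1.85 FPKM (mean ± SD, n = 3) under 7-day vehicle to 32.8 ± 1.62 under VIC-1911 (log2 fold change -0.37 ± 0.05, adjusted p = 6.1e-07). SCAP levels under olaparib and the combination were 30.1 ± 0.182 and 29.4 ± 2.13 (log2 fold changes -0.46 ± 0.05 and -0.47 ± 0.05, adjusted p = 1.3e-08 and 4.1e-09), and the 2-day change was -0.06 ± 0.05 (adjusted p = 0.559). Of the 5 regulators, 3 were lower and 0 higher after 2 days (7.19% and 7.50% of all genes tested). After 7 days of VIC-1911, 3 were lower and 1 higher (25.8% and 26.6% of all genes). These 3 include INSIG2, whose call was lost under 10 alternatives, and the 1 is INSIG1, lost without vehicle library 2. Olaparib left 4 lower and 0 higher (25.9% and 28.1% of all genes). The combination gave the same counts (28.0% and 28.6% of all genes). The counts of 0 were also 0 at an unadjusted p under 0.05 in edgeR, and by DESeq2 and limma.

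**Figure D2:**
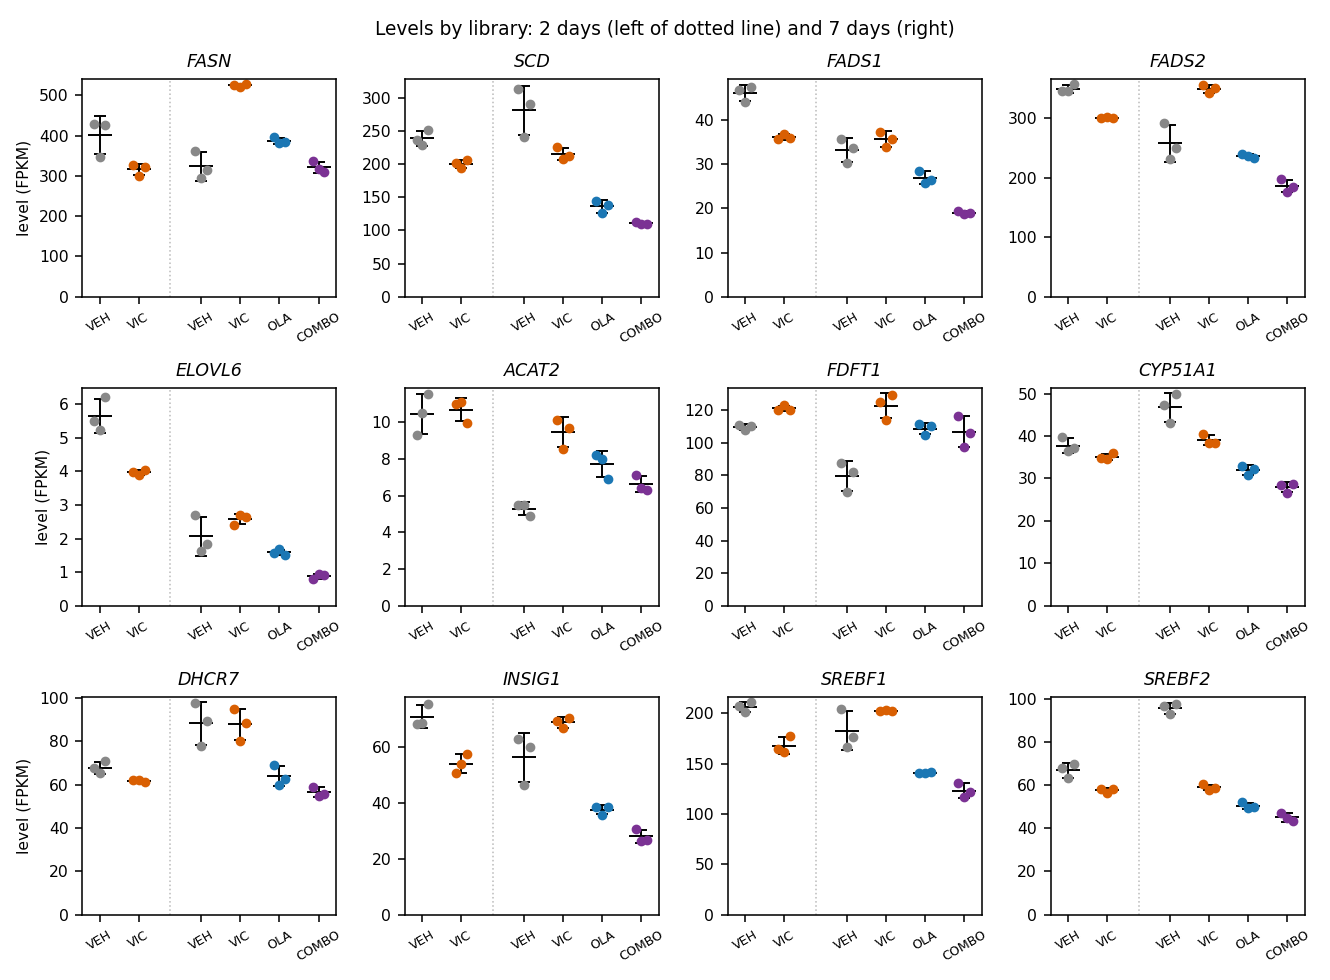
Levels (FPKM, linear axis from 0) of 12 members in each library, with the mean (bar) and SD (whiskers) of the 3 libraries of a group, 2 days left of the dotted line and 7 days right of it. SREBF2 and SCD step down from vehicle to the combination after 7 days, whereas FASN rises from a mean of 324 to 525 FPKM under VIC-1911 and is 321 under the combination.

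Among the 9 fatty acid genes, FASN, the multidomain synthase of palmitate (chromosome 17, 82078338 to 82098294), had 429, 346 and 427 FPKM under vehicle and 327, 301 and 322 under VIC-1911 after 2 days. At 7 days the libraries held 363, 294 and 314 under vehicle, 527, 521 and 528 under VIC-1911, 396, 381 and 384 with olaparib and 336, 316 and 311 with the combination. VIC-1911 libraries lay below vehicle after 2 days and above it after 7 days, and the combination overlapped vehicle. FASN was 1.25-fold lower after 2 days (log2 fold change -0.32 ± 0.05, adjusted p = 1.5e-05) and 1.57-fold higher after 7 days of VIC-1911 (log2 fold change 0.65 ± 0.05, adjusted p = 3.7e-12). It was also higher under olaparib (log2 fold change 0.24 ± 0.05, adjusted p = 0.00016), while under the combination the log2 fold change was -0.01 (95% interval -0.11 to 0.08, adjusted p = 0.823).

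SCD, the desaturase that makes oleate from stearate (chromosome 10, 100347233 to 100364826), had the lowest log2 fold change of all members under the combination. After 7 days it had 313, 240.4 and 290.2 FPKM under vehicle, 226, 208 and 212 under VIC-1911, 145, 126 and 138 with olaparib and 113, 109.7 and 109.5 with the combination. The 4 groups did not overlap, and the combination libraries were nearly equal to one another. SCD was 1.35-fold lower under VIC-1911 (log2 fold change -0.43 ± 0.06, adjusted p = 7.4e-07), 2.09-fold lower under olaparib (log2 fold change -1.06 ± 0.06, adjusted p = 8e-15) and 2.55-fold lower under the combination (log2 fold change -1.35 ± 0.06, adjusted p = 2.3e-17). It was already lower after 2 days, with 236, 229.8 and 252 FPKM under vehicle and 202, 194 and 206 under VIC-1911 (log2 fold change -0.25 ± 0.04, adjusted p = 4.5e-05). A pseudogene copy, SCDP1, exists, so reads may be shared between them.

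ELOVL6, which elongates palmitate to stearate (chromosome 4, 110045846 to 110199199), was low in level. After 2 days it had 5.50, 5.24 and 6.22 FPKM under vehicle and 3.98, 3.91 and 4.05 under VIC-1911 (log2 fold change -0.34 ± 0.12, adjusted p = 0.0572). Its 7-day levels were 2.71, 1.64 and 1.84 under vehicle, 2.40, 2.70 and 2.63 under VIC-1911, 1.57, 1.68 and 1.52 with olaparib and 0.780, 0.935 and 0.904 with the combination. Vehicle library 1 stood above the other two vehicle libraries, and every combination library lay below all other 7-day libraries. ELOVL6 was 2.41-fold lower under the combination (log2 fold change -1.27 ± 0.17, adjusted p = 1.9e-07), and its lower value under olaparib (log2 fold change -0.40 ± 0.15, adjusted p = 0.0289) was lost without vehicle library 1 (adjusted p = 0.493). Under VIC-1911 it stood at 0.27 ± 0.14 (adjusted p = 0.118). The olaparib call was lost under 6 alternatives, DESeq2 (0.0543) and both limma fits (0.0986 and 0.0867) among them.

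FADS1 and FADS2, the delta-5 and delta-6 desaturases of polyunsaturated fatty acids, overlap each other on opposite strands of chromosome 11 (61799627 to 61829318 and 61792980 to 61867354), and FADS2 also overlaps FEN1, so their counts are uncertain. FADS1 had 35.8, 30.4 and 33.6 FPKM under 7-day vehicle, 37.4, 33.8 and 35.8 under VIC-1911, 28.6, 25.9 and 26.4 with olaparib and 19.5, 18.9 and 18.9 with the combination. The combination libraries lay below all others and within 1 FPKM of one another, while VIC-1911 overlapped vehicle. FADS1 fell under olaparib (log2 fold change -0.33 ± 0.05, adjusted p = 8.9e-06) and was 1.75-fold lower under the combination (log2 fold change -0.80 ± 0.06, adjusted p = 2.6e-13), and after 2 days of VIC-1911 it fell from 46.8, 44.1 and 47.5 to 35.9, 37.0 and 35.9 FPKM (log2 fold change -0.34 ± 0.05, adjusted p = 4.8e-06). FADS2 went from 258 ± 30.7 FPKM under vehicle to 349.8 ± 7 under VIC-1911 (log2 fold change 0.39 ± 0.05, adjusted p = 3.7e-07), 237 ± 3.07 under olaparib and 186 ± 10.5 under the combination (log2 fold change -0.47 ± 0.05, adjusted p = 1.1e-08). Its small decrease under olaparib (log2 fold change -0.14 ± 0.05, adjusted p = 0.0271) was lost without vehicle library 1 (adjusted p = 0.308). That call was lost under 6 alternatives, both limma fits (0.168 and 0.17) among them.

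ACLY, which makes cytosolic acetyl-CoA from citrate, rose from 135 ± 6.97 to 157 ± 1.83 FPKM under VIC-1911 (log2 fold change 0.17 ± 0.04, adjusted p = 0.00094). ACACA, the carboxylase that makes malonyl-CoA, fell from 27.8 ± 1.02 to 24.1 ± 2.41 FPKM under the combination (log2 fold change -0.21 ± 0.05, adjusted p = 0.00127), and ACSS2, which makes acetyl-CoA from acetate, from 11.4 ± 0.646 to 9.24 ± 0.0228 (log2 fold change -0.31 ± 0.06, adjusted p = 0.00015). ELOVL5, an elongase of polyunsaturated fatty acids, was the fatty acid gene that rose after 2 days, from 244 ± 12 to 305 ± 2.51 FPKM (log2 fold change 0.33 ± 0.04, adjusted p = 1.9e-07), and after 7 days its group means lay between 234 and 242 with no test passed. The 2-day decrease of ACSS2 (log2 fold change -0.23 ± 0.08, adjusted p = 0.0464) was lost under 9 alternatives.

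The sterol genes did not all move one way. The genes of the first 2 steps listed here, ACAT2 and HMGCS1, were higher in every 7-day drug group. ACAT2, the cytosolic thiolase, had 5.50, 5.47 and 4.87 FPKM under vehicle, 10.1, 8.54 and 9.68 under VIC-1911, 8.24, 7.97 and 6.91 with olaparib and 7.12, 6.41 and 6.32 with the combination. All drug libraries lay above all vehicle libraries. ACAT2 was 1.71-fold higher under VIC-1911 (log2 fold change 0.77 ± 0.10, adjusted p = 9.8e-08), 1.39-fold higher under olaparib (log2 fold change 0.48 ± 0.10, adjusted p = 0.00018) and 1.24-fold higher under the combination (log2 fold change 0.31 ± 0.10, adjusted p = 0.01, lost without combination library 1, 0.0764), while its 2-day levels of 9.32, 10.5 and 11.5 under vehicle and 10.97, 11.1 and 9.96 under VIC-1911 overlapped (log2 fold change -0.01 ± 0.11, adjusted p = 0.985). ACAT2 overlaps SOD2 and TCP1 on the other strand. HMGCS1, which makes HMG-CoA, rose from 10.9 ± 0.451 FPKM to 16.1 ± 0.994 under VIC-1911 (log2 fold change 0.51 ± 0.06, adjusted p = 2.2e-08), 15 ± 1.11 under olaparib (log2 fold change 0.42 ± 0.06, adjusted p = 8.2e-07) and 14.6 ± 0.809 under the combination (log2 fold change 0.42 ± 0.06, adjusted p = 5.5e-07), and had also risen after 2 days (log2 fold change 0.26 ± 0.06, adjusted p = 0.00359).

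Of the mevalonate steps, IDI1, the isopentenyl diphosphate isomerase, rose by 0.51 ± 0.06 under VIC-1911, 0.36 ± 0.06 under olaparib and 0.28 ± 0.06 under the combination (adjusted p = 3.4e-08, 1.2e-05 and 0.00024). The mevalonate kinase MVK, by contrast, fell under olaparib (log2 fold change -0.36 ± 0.07, adjusted p = 0.00016) and the combination (log2 fold change -0.40 ± 0.07, adjusted p = 2.6e-05) and stood at -0.12 ± 0.07 under VIC-1911 (adjusted p = 0.172). PMVK and NSDHL passed in no comparison with vehicle, with log2 fold changes from 0.03 to 0.12 for PMVK and from 0.01 to 0.16 for NSDHL. MVD, which makes isopentenyl diphosphate, rose under VIC-1911 (log2 fold change 0.21 ± 0.07, adjusted p = 0.017), a call lost without vehicle library 2 (0.133) or VIC-1911 library 1 (0.0608). FDPS, which makes farnesyl diphosphate and has 8 annotated pseudogenes, was lower after 2 days (log2 fold change -0.19 ± 0.06, adjusted p = 0.0282), higher after 7 days of VIC-1911 (log2 fold change 0.30 ± 0.05, adjusted p = 3e-05) and lower under the combination (log2 fold change -0.25 ± 0.06, adjusted p = 0.00037). Its 2-day call was lost under 4 alternatives.

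Of the squalene steps, FDFT1, which makes squalene, rose from 79.8 ± 9.34 FPKM to 123 ± 7.88 under VIC-1911 (log2 fold change 0.58 ± 0.06, adjusted p = 7.1e-09), 109 ± 3.54 under olaparib (log2 fold change 0.43 ± 0.06, adjusted p = 1.5e-06) and 107 ± 9.62 under the combination (log2 fold change 0.42 ± 0.06, adjusted p = 1.7e-06). SQLE, the epoxidase that follows, fell under olaparib (log2 fold change -0.31 ± 0.06, adjusted p = 4.9e-05) and the combination (log2 fold change -0.34 ± 0.06, adjusted p = 8.7e-06), and LSS, which closes the ring to lanosterol, rose under VIC-1911 (log2 fold change 0.28 ± 0.06, adjusted p = 0.0003).

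Of the 8 genes after lanosterol, 6 were lower (28.0% of all genes) and 0 higher (28.6% of all genes) under the combination (0 also at an unadjusted p under 0.05, by edgeR). CYP51A1, the lanosterol demethylase, had 39.7, 36.4 and 37.1 FPKM under vehicle and 34.8, 34.5 and 35.9 under VIC-1911 after 2 days (log2 fold change -0.08 ± 0.05, adjusted p = 0.383). The levels at 7 days were 47.3, 43.1 and 49.9 under vehicle, 40.5, 38.4 and 38.3 under VIC-1911, 33.0, 30.8 and 32.2 with olaparib and 28.5, 26.7 and 28.8 with the combination. The 4 groups descended without overlap. CYP51A1 was 1.23-fold lower under VIC-1911 (log2 fold change -0.30 ± 0.05, adjusted p = 1.6e-05), 1.48-fold under olaparib (log2 fold change -0.56 ± 0.05, adjusted p = 3e-10) and 1.66-fold under the combination (log2 fold change -0.73 ± 0.05, adjusted p = 6.2e-13). It overlaps AKAP9 on the other strand and unnamed protein-coding genes on its own strand, and has 3 pseudogenes, so its counts are uncertain.

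SC5D, which introduces the last ring double bond before DHCR7, had 11.9, 12.5 and 13.4 FPKM under 7-day vehicle, 8.45, 8.59 and 8.36 under VIC-1911, 8.17, 7.35 and 8.33 with olaparib and 8.19, 8.40 and 8.56 with the combination. All drug libraries lay below vehicle, the olaparib libraries lay below the VIC-1911 libraries, and the combination overlapped both. The log2 fold changes were -0.61 ± 0.06, -0.68 ± 0.06 and -0.59 ± 0.06 (adjusted p = 2.6e-10, 3.4e-11 and 3.8e-10), against 0.06 ± 0.07 after 2 days, when the levels were 7.13, 7.30 and 7.89 under vehicle and 7.61, 8.07 and 7.74 under VIC-1911 (adjusted p = 0.642). DHCR7, the last reductase, differed in that VIC-1911 left it near vehicle.

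DHCR7 had 97.8, 77.8 and 89.3 FPKM under 7-day vehicle, 94.6, 80.1 and 88.6 under VIC-1911, 68.8, 59.8 and 62.6 with olaparib and 59.1, 54.7 and 55.5 with the combination. It was 1.41-fold lower under olaparib (log2 fold change -0.50 ± 0.07, adjusted p = 1.9e-07) and 1.57-fold lower under the combination (log2 fold change -0.65 ± 0.06, adjusted p = 8.5e-10), and stood at -0.05 ± 0.06 under VIC-1911 (adjusted p = 0.5). After 2 days it had 67.4, 65.2 and 70.7 under vehicle and 62.0, 61.9 and 61.3 under VIC-1911 (log2 fold change -0.11 ± 0.05, adjusted p = 0.133). EBP, the sterol isomerase, went the other way from its neighbours.

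EBP had 66.1, 65.2 and 64.5 FPKM under vehicle and 53.3, 64.7 and 57.8 under VIC-1911 after 2 days (log2 fold change -0.16 ± 0.07, adjusted p = 0.139). By 7 days the levels were 49.5, 39.2 and 39.4 under vehicle, 70.2, 65.3 and 72.7 under VIC-1911, 53.2, 52.3 and 51.8 with olaparib and 49.5, 39.1 and 42.8 with the combination. VIC-1911 libraries were well above all others, and the combination spanned the vehicle range. EBP was 1.57-fold higher under VIC-1911 (log2 fold change 0.65 ± 0.07, adjusted p = 1.9e-08), and its increase under olaparib (log2 fold change 0.26 ± 0.08, adjusted p = 0.00464) was lost without vehicle library 2 (0.0821). An unnamed protein-coding gene overlaps it on the same strand.

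TM7SF2, a sterol reductase gene that overlaps VPS51 on the same strand, rose after 2 days (log2 fold change 0.19 ± 0.05, adjusted p = 0.0154), a call lost under 5 alternatives, and fell after 7 days of VIC-1911, from 185 ± 3.80 to 143 ± 8.64 FPKM (log2 fold change -0.42 ± 0.04, adjusted p = 4.6e-09). MSMO1, a sterol methyl oxidase, fell under olaparib (log2 fold change -0.36 ± 0.08, adjusted p = 0.00021) and the combination (log2 fold change -0.47 ± 0.07, adjusted p = 4.3e-06). HSD17B7, a keto-sterol reductase with annotated pseudogenes, fell under VIC-1911, olaparib and the combination (log2 fold changes -0.31 ± 0.09, -0.39 ± 0.09 and -0.40 ± 0.09, adjusted p = 0.00421, 0.00046 and 0.00022).

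Of the transport genes, STARD4, which carries cholesterol between membranes, had 1.73, 1.32 and 1.60 FPKM under vehicle and 2, 1.962 and 1.801 under VIC-1911 after 2 days (log2 fold change 0.33 ± 0.16, adjusted p = 0.173). After 7 days it had 1.41, 0.901 and 1.24 under vehicle, 1.89, 1.81 and 2 under VIC-1911, 2.44, 1.51 and 2.19 with olaparib and 1.99, 1.56 and 1.79 with the combination. Every drug library lay above every vehicle library. STARD4 was 1.59-fold higher under VIC-1911 (log2 fold change 0.67 ± 0.16, adjusted p = 0.00066), 1.67-fold under olaparib (log2 fold change 0.74 ± 0.16, adjusted p = 0.0002) and 1.55-fold under the combination (log2 fold change 0.63 ± 0.15, adjusted p = 0.00091).

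ABCG1, a cholesterol exporter, had 3.21, 3.21 and 3.71 FPKM under vehicle and 2.11, 2.68 and 2.24 under VIC-1911 after 2 days, a 1.51-fold decrease (log2 fold change -0.60 ± 0.15, adjusted p = 0.00372) and the one member below the 1.5-fold limit of that time, as were 1.33% of all genes. After 7 days it had 5.11, 4.12 and 4.46 under vehicle, 4.14, 3.56 and 3.78 under VIC-1911, 5.04, 3.96 and 6.27 with olaparib and 5.36, 3.90 and 4.98 with the combination, with overlapping groups and no test against vehicle passed (adjusted p = 0.0576, 0.333 and 0.655). ABCA1, the other exporter, was barely detected. Its counts were 11, 3 and 5 under 7-day vehicle, 12, 15 and 14 under VIC-1911, 7, 18 and 22 with olaparib and 8, 11 and 17 with the combination. After 2 days they were 2, 2 and 1 under vehicle and 8, 1 and 3 under VIC-1911. Its levels did not exceed 0.0869 FPKM as a group mean, and its passing tests under VIC-1911 (log2 fold change 1.10 ± 0.45, adjusted p = 0.0428) and olaparib (log2 fold change 1.16 ± 0.44, adjusted p = 0.0282) were lost without vehicle library 2 (adjusted p = 0.387 and 0.31). They were lost under 7 and 6 alternatives, DESeq2 (0.0897 and 0.0675) and both limma fits among them.

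VIC-1911 moved part of these genes in opposite directions at the 2 times. Of the members, 4 were lower after 2 days and higher after 7 days (FASN, FADS2, FDPS and INSIG1), 1 was higher and then lower (TM7SF2), 2 were lower at both times (SCD and SREBF2) and 2 higher at both (FDFT1 and HMGCS1). The 2-day call for FDFT1 was lost without VIC-1911 library 2 (adjusted p = 0.0579). The 2-day calls for FDPS and TM7SF2 were lost under 4 and 5 alternatives, DESeq2 among them. The 7-day call for INSIG1 was lost without vehicle library 2 (adjusted p = 0.142). The share of all genes that changed direction between the times was not counted. The difference of the 2 effects, which rests on separate vehicle libraries, passed in the higher direction for 14 of 35 members (40.0%, against 14.6% of 13832 genes) and in the lower direction for 8 (22.9%, against 14.2%). It was highest for FASN (log2 fold change 0.96 ± 0.08, adjusted p = 2.5e-14) and EBP (log2 fold change 0.78 ± 0.10, adjusted p = 4.1e-08), and lowest for SC5D (log2 fold change -0.69 ± 0.09, adjusted p = 4.4e-08) and TM7SF2 (log2 fold change -0.62 ± 0.07, adjusted p = 2.4e-09). The fatty acid genes had a median difference of 0.30 and the sterol genes of 0.11, against -0.011 over all genes. The count of 8 became 5 without 2-day VIC-1911 library 3, 7-day vehicle library 1 or 7-day VIC-1911 library 2.

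**Figure D3:**
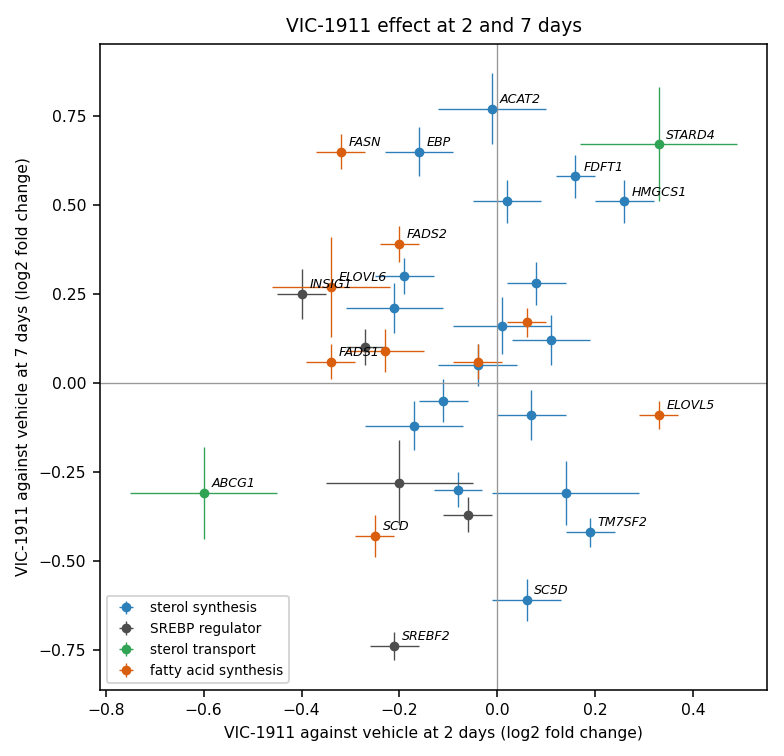
Log2 fold change (edgeR) of VIC-1911 against vehicle at 2 days (x axis) and 7 days (y axis) for the 34 members tested at both times, with SE bars and colours for the 4 roles. FASN, FADS2, INSIG1 and EBP lie in the upper left, lower or near 0 at 2 days and higher at 7 days, and SREBF2 and SCD in the lower left.

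The combination was lower than olaparib alone for 7 of 9 fatty acid genes and lower than VIC-1911 alone for 8 of 9. Against olaparib, within one run of library numbers, 13 of 35 members were lower (37.1%, against 6.95% of all genes) and 0 were higher (4.55% of all genes). At an unadjusted p under 0.05 in edgeR the count of higher members was 0 as well, as it was by DESeq2 and limma. The largest decreases that passed were in ELOVL6 (log2 fold change -0.86 ± 0.17, adjusted p = 0.0011), FADS1 (log2 fold change -0.47 ± 0.06, adjusted p = 9.6e-07), INSIG1 (log2 fold change -0.40 ± 0.07, adjusted p = 0.0005), FADS2 (log2 fold change -0.33 ± 0.05, adjusted p = 9.1e-05) and SCD (log2 fold change -0.28 ± 0.06, adjusted p = 0.00232). FASN was also lower (log2 fold change -0.25 ± 0.05, adjusted p = 0.00079). The count of 13 became 6 without olaparib library 1, 7 without olaparib library 3 and 6 without combination library 3.

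Against VIC-1911, 23 members were lower (65.7%, against 22.2% of all genes) and 3 higher (8.57%, against 20.7%), the latter INSIG2, TM7SF2 and ABCG1. The largest decreases were again in ELOVL6 (log2 fold change -1.54 ± 0.16, adjusted p = 7.4e-09), INSIG1 (log2 fold change -1.25 ± 0.07, adjusted p = 2.6e-14), SCD (log2 fold change -0.92 ± 0.06, adjusted p = 6.2e-13), FADS2 (log2 fold change -0.87 ± 0.05, adjusted p = 1.2e-13) and FADS1 (log2 fold change -0.86 ± 0.05, adjusted p = 2.1e-13), and both comparisons share the combination libraries. The count of 3 became 1 without VIC-1911 library 2 or combination library 1. Olaparib alone was lower than VIC-1911 alone for 19 members (54.3%, against 12.3%) and higher for 2 (5.71%, against 11.1%), INSIG2 and ABCG1, a count that became 0 without olaparib library 3 and 1 without any of 5 other libraries (vehicle 3, VIC-1911 2 or 3, olaparib 1, or combination 3).

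The VIC-1911 effect with olaparib present differed from that without it for 23 of 35 members. The interaction, the VIC-1911 effect in olaparib-treated cells minus its effect in vehicle-treated cells, was below 0 and passed for 19 of 35 members (54.3%, against 22.9% of all genes) and above 0 for 4 (11.4%, against 21.0%). FASN rose by 0.65 under VIC-1911 without olaparib and stood at -0.25 with it, a difference of -0.91 ± 0.07 (adjusted p = 9.8e-12). The values for FADS2 were 0.39 and -0.33 (-0.73 ± 0.08, adjusted p = 5.2e-09), and for EBP 0.65 and -0.23 (-0.88 ± 0.11, adjusted p = 7e-08). SREBF2, SC5D, TM7SF2 and SCAP went the other way, with the interaction above 0: SREBF2 stood at -0.74 and -0.14 (0.60 ± 0.06, adjusted p = 2.5e-09) and SC5D at -0.61 and 0.10 (0.71 ± 0.08, adjusted p = 2.9e-08). The count of 4 became 8 without vehicle library 2.

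Sterol and fatty acid genes are set side by side in the plot of both groups. After 2 days of VIC-1911, 3 of 18 sterol genes were higher and 1 lower (median 0.02, and -0.00 with upper-quartile normalization), while 1 of 9 fatty acid genes was higher and 5 lower (median -0.23). After 7 days of VIC-1911, 8 sterol genes were higher and 4 lower (median 0.14), and 3 fatty acid genes higher and 1 lower (median 0.09). Under olaparib, 5 sterol genes were higher and 8 lower (median -0.06), and 1 fatty acid gene was higher and 4 lower (median -0.13). Among these 4, the calls for ELOVL6 and FADS2 were each lost under 6 alternatives. Of all genes tested, 7.50% were higher and 7.19% lower after 2 days. After 7 days these shares were 26.6% and 25.8% under VIC-1911 and 28.1% and 25.9% under olaparib. The shares of sterol genes lower under 7-day VIC-1911 (22.2%) and higher under olaparib (27.8%) lay near those of all genes.

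Under the combination, 4 sterol genes were higher and 9 lower (median -0.17), and 0 fatty acid genes were higher and 6 lower (median -0.31), with all 9 fatty acid genes below 0 in the edgeR fit. Against olaparib, 3 of 18 sterol genes were lower (median -0.04) and 7 of 9 fatty acid genes (median -0.25), and 0 of either were higher, also at an unadjusted p under 0.05 in edgeR and by DESeq2 and limma. All 3 sterol calls depended on the setting: FDPS was lost under 4 alternatives, CYP51A1 under 8 (DESeq2 among them) and EBP under 10 (DESeq2 and both limma fits among them). Of the fatty acid calls, ACLY was lost under 4 and ACACA under 7. Against VIC-1911, 12 sterol genes were lower and 1 higher (median -0.30), and 8 fatty acid genes lower and 0 higher (median -0.67). By library, the median fatty acid gene stood at -0.36, -0.31 and -0.30 under the combination (log2 FPKM relative to the vehicle mean) and the median sterol gene at -0.09, -0.26 and -0.17. Of all genes tested, 28.6% were higher and 28.0% lower under the combination against vehicle. The same shares were 4.55% and 6.95% against olaparib and 20.7% and 22.2% against VIC-1911. Members are not replicates, so no test sets the 2 groups of genes against each other.

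**Figure D4:**
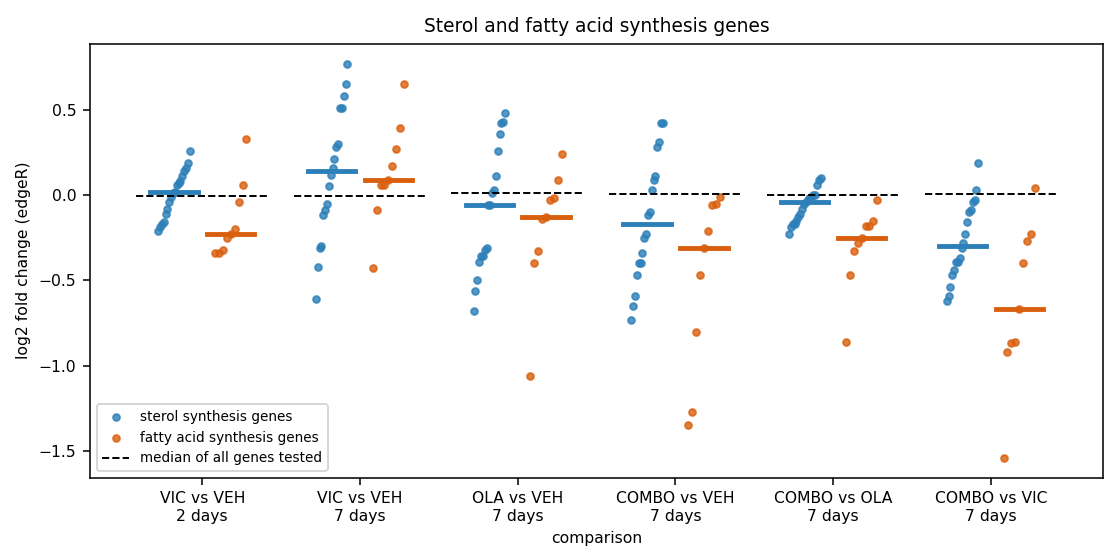
Log2 fold changes (edgeR) of the 18 sterol synthesis genes (blue) and the 9 fatty acid synthesis genes (orange) in 6 comparisons, one point per gene sorted by value, with the median of each group (thick line) and of all genes tested (dashed). Fatty acid genes lie lower than sterol genes in the combination against olaparib (medians -0.25 and -0.04) and against VIC-1911 (medians -0.67 and -0.30).

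Of 12 further SREBP and LXR pathway genes (the proteases that release SREBPs, COPII coat genes, 2 ubiquitination genes of the endoplasmic reticulum, LXRs, their partners and 2 of their targets), 1 was higher and 1 lower after 2 days and 4 higher and 6 lower under 7-day VIC-1911. Olaparib raised 4 and lowered 6 (28.1% and 25.9% of all genes), and the combination raised 3 and lowered 7 (25.0% and 58.3%, against 28.6% and 28.0% of all genes). The shares of all genes higher and lower were 7.50% and 7.19% after 2 days and 26.6% and 25.8% under 7-day VIC-1911. The 2-day counts of these 12 genes, 1 in each direction, lay near those shares. MBTPS2, the site-2 protease that releases SREBPs, fell under the combination (log2 fold change -0.50 ± 0.06, adjusted p = 1.8e-08), as did LPCAT3, an acyltransferase of phospholipids and an LXR target (log2 fold change -0.36 ± 0.05, adjusted p = 1.3e-07). NR1H2, which encodes LXR-beta, fell under VIC-1911 (log2 fold change -0.48 ± 0.05, adjusted p = 1.6e-08) and olaparib (log2 fold change -0.48 ± 0.06, adjusted p = 1.6e-08), and NR1H3, which encodes LXR-alpha, fell after 2 days (log2 fold change -0.41 ± 0.12, adjusted p = 0.0188). RXRA, the partner receptor, rose under the combination (log2 fold change 0.34 ± 0.04, adjusted p = 4e-08).

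Of 15 genes listed for sterol uptake, storage and movement, 13 were tested. The list also holds genes with other roles, LBR and GGPS1 among them. Of the 13 tested, 2 were higher and 2 lower after 2 days, with 2 higher and 5 lower under 7-day VIC-1911. Olaparib raised 2 and lowered 4, and the combination raised 4 and lowered 4 (30.8% each, against 28.6% and 28.0% of all genes). After 2 days 15.4% were higher and 15.4% lower (7.50% and 7.19% of all genes). Under 7-day VIC-1911 15.4% were higher and 38.5% lower (26.6% and 25.8% of all genes). Under olaparib 15.4% were higher and 30.8% lower (28.1% and 25.9% of all genes). VLDLR, a lipoprotein receptor, fell after 2 days (log2 fold change -0.81 ± 0.12, adjusted p = 6.2e-06) and under 7-day VIC-1911, olaparib and the combination (log2 fold changes -1.53 ± 0.09, -1.48 ± 0.09 and -1.26 ± 0.09, adjusted p = 1.2e-14, 2.1e-14 and 2.1e-13). LBR, a sterol reductase of the inner nuclear membrane, fell after 2 days (log2 fold change -0.31 ± 0.06, adjusted p = 0.00031), under olaparib (log2 fold change -0.77 ± 0.06, adjusted p = 7.3e-12) and under the combination (log2 fold change -1.18 ± 0.06, adjusted p = 4.3e-16). SCARB1, the HDL receptor, rose under 7-day VIC-1911 (log2 fold change 0.55 ± 0.05, adjusted p = 8.7e-10), and NPC1, which exports cholesterol from lysosomes, rose under the combination (log2 fold change 0.39 ± 0.05, adjusted p = 3.7e-07).

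Of 27 other genes of fatty acid and glycerolipid synthesis, 23 were tested after 2 days, with 5 higher and 5 lower (7.50% and 7.19% of all genes). After 7 days 25 were tested, with 11 higher and 9 lower under VIC-1911 (26.6% and 25.8% of all genes). Olaparib raised 11 and lowered 8 (28.1% and 25.9% of all genes), and the combination raised 13 and lowered 10 (52.0% and 40.0%, against 28.6% and 28.0% of all genes). The acyl-CoA synthetases diverged: ACSL4, which prefers arachidonate, rose under the combination (log2 fold change 2.24 ± 0.19, adjusted p = 3.4e-11) and ACSL3 rose under each drug (under the combination, log2 fold change 0.49 ± 0.05, adjusted p = 2.6e-10), while ACSL1 fell 2-fold under the combination (adjusted p = 4.2e-16). ME1, a cytosolic source of NADPH, fell under VIC-1911 (log2 fold change -0.45 ± 0.05, adjusted p = 2.8e-09), olaparib (log2 fold change -0.72 ± 0.05, adjusted p = 2e-13) and the combination (log2 fold change -0.78 ± 0.05, adjusted p = 1.6e-14). SCD5, a second stearoyl-CoA desaturase, fell after 2 days (log2 fold change -1.13 ± 0.27, adjusted p = 0.00335), and AGPAT2, which acylates lysophosphatidate, fell under VIC-1911 (log2 fold change -0.87 ± 0.08, adjusted p = 9.8e-11) and olaparib (log2 fold change -1.02 ± 0.08, adjusted p = 4.1e-12).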

How the data were processed

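Per the labels and the study's methods, the authors used Trimmomatic for trimming and STAR (2.6.0 in the submitters' processing notes) for alignment to GRCh38, and deposited raw counts per gene and FPKM values, 1 table of each per time point. The strand setting of the counting is not given in the sources used here. The labels and the paper name different RNA and library kits. FPKM values are used as levels (mean ± SD, n = 3). The 7-day FPKM values follow from the counts, and the 2-day ones rest on other read totals. Counts were fitted with edgeR 4.0.16 in R 4.3.3 (TMM, quasi-likelihood test) on genes reaching 10 counts in 3 or more libraries, separately for 2 days (6 libraries), 7 days (12) and the time difference (12). Genes turned into calendar dates stayed in library sizes. Replicate pairs differed by more than counting noise, with chi-square per degree of freedom of 1.26 to 5.52. The test was run on simulated data with 1 fixed spread and changes of 1.5-fold and 2-fold in well-counted genes. Smaller changes and genes at low counts were not covered.

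All members may be named. Values of every library are given for members that passed with at least 1.5-fold against vehicle and for INSIG1, INSIG2, SREBF1 and SREBF2. Of each further list, up to 2 genes per direction with the lowest adjusted p in a comparison with vehicle are named. A few genes of the further lists and markers are not reported here and were left out of their counts and sums. The members, lists and this rule were chosen with earlier results of these data known. Alternatives were upper-quartile normalization, no scaling, no filter, a filter on FPKM of 1, DESeq2 1.42.0, a block on the library number, limma 3.58.1 on log2(FPKM + 0.1) and log2(FPKM + 1), the compared groups alone, and each library left out. Gene positions and overlaps come from GENCODE release 44. Of the 35 members 24 overlap another annotated gene, 10 of them a protein-coding one.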

Additional observations from a re-analysis of the deposited data

Results flagged for a closer look

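For 23 members the VIC-1911 effect with olaparib differed from that without it by edgeR's quasi-likelihood test of the interaction. On the log2 scale the interaction was below 0 for ABCA1 (-1.56), ELOVL6 (-1.13), ACAT2 (-0.94), FASN (-0.91), EBP (-0.88), STARD4 (-0.78), FADS2 (-0.73), INSIG1 (-0.65), IDI1 (-0.59), FDFT1 (-0.59), FADS1 (-0.53), HMGCS1 (-0.51), FDPS (-0.49), LSS (-0.41), ACLY (-0.32), SREBF1 (-0.28), ACSS2 (-0.27), MVD (-0.25) and ACACA (-0.24). It was above 0 for SC5D (0.71), SREBF2 (0.60), TM7SF2 (0.50) and SCAP (0.35). The adjusted p ranged from 9.8e-12 for FASN to 0.0466 for MVD, and the calls for MVD and ABCA1 were lost under 11 and 9 alternatives, while ABCA1 had at most 22 counts in a library.

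For 22 members the VIC-1911 effect differed between 7 and 2 days by the same test on the joint fit. The 7-day effect was higher for FASN (0.96), EBP (0.78), ACAT2 (0.76), INSIG1 (0.64), ELOVL6 (0.60), FADS2 (0.57), IDI1 (0.47), FDPS (0.47), FDFT1 (0.41), MVD (0.40), FADS1 (0.38), SREBF1 (0.36), ACSS2 (0.30) and HMGCS1 (0.23). It was lower for SC5D (-0.69), TM7SF2 (-0.62), SREBF2 (-0.54), HSD17B7 (-0.46), ELOVL5 (-0.43), SCAP (-0.33), CYP51A1 (-0.24) and SCD (-0.19). The adjusted p ranged from 2.5e-14 for FASN to 0.0462 for SCD, and the calls for SCD and HSD17B7 were lost under 14 and 11 alternatives. The 2 time points come from separately made tables, so time and table cannot be told apart.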

How the results depend on the processing

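The members' counts and class medians were recomputed under 9 alternatives and with each library left out. The sterol median after 2 days of VIC-1911, 0.02, was -0.00 with upper-quartile normalization, 0.07 and 0.06 in limma with 0.1 and 1 added to FPKM, and -0.01 without VIC-1911 library 2. With limma the interaction medians were -0.21 and -0.20 (sterol, -0.13 as reported) and -0.38 in both (fatty acid, -0.32 as reported). Members higher in the combination against VIC-1911 were 1 in both limma fits (3 as reported), and in olaparib against VIC-1911 0 by DESeq2 and limma (2 as reported). For the time difference, members lower were 5 with no scaling and in both limma fits (8 as reported), and the sterol median 0.16 with no scaling (0.11 as reported). The causes were not tested.

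The following ranges are over the fits with 1 library left out. For VIC-1911 at 2 days, members higher ranged over 2 to 4 and lower over 8 to 10, and the median log2 fold changes over -0.01 to 0.06 (sterol) and -0.25 to -0.19 (fatty acid). For VIC-1911 at 7 days, members higher ranged over 11 to 16 and lower over 7 to 13, and the median log2 fold changes over 0.09 to 0.15 (sterol) and 0.05 to 0.12 (fatty acid). For olaparib, members higher ranged over 6 to 9 and lower over 14 to 17, and the median log2 fold changes over -0.12 to -0.04 (sterol) and -0.19 to -0.06 (fatty acid). For the combination, members higher ranged over 4 to 5 and lower over 19 to 21, and the median log2 fold changes over -0.22 to -0.14 (sterol) and -0.37 to -0.28 (fatty acid). For the combination against olaparib, members higher were 0 throughout and lower ranged over 6 to 13, and the median log2 fold changes over -0.11 to -0.01 (sterol) and -0.28 to -0.23 (fatty acid). For the combination against VIC-1911, members higher ranged over 1 to 3 and lower over 22 to 24, and the median log2 fold changes over -0.36 to -0.23 (sterol) and -0.70 to -0.65 (fatty acid). For olaparib against VIC-1911, members higher ranged over 0 to 2 and lower over 15 to 20, and the median log2 fold changes over -0.26 to -0.22 (sterol) and -0.42 to -0.35 (fatty acid). For the interaction, members higher ranged over 4 to 8 and lower over 16 to 19, and the median log2 fold changes over -0.18 to -0.06 (sterol) and -0.35 to -0.28 (fatty acid). For the time difference, members higher ranged over 12 to 16 and lower over 5 to 8, and the median log2 fold changes over 0.06 to 0.19 (sterol) and 0.26 to 0.38 (fatty acid). The 2-day count of 4 higher became 2 without VIC-1911 library 2, and the 7-day VIC-1911 count of 8 lower became 13 without vehicle library 2. The olaparib sterol median was -0.12 without vehicle library 2 and its fatty acid median -0.06 without vehicle library 1.

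Same-numbered libraries deviated little together over all genes (correlations from -0.0356 to 0.111 over 7-day pairs). With so few libraries a group, this cannot settle whether the numbers pair the samples. Library 2 was the lowest of each 7-day group for some members, INSIG1 and DHCR7 among them, and not for others, such as FASN. With the replicate number as a block, 304 of 314 tests of single members kept their direction and call, 8 passed in addition and 2 were lost (ACSS2 at 2 days, adjusted p = 0.0519, and ABCA1 under 7-day VIC-1911, 0.0556). DESeq2 called 452 genes higher and 395 lower over all genes at 2 days, against 918 and 880 by edgeR. With 3 libraries a group, ABCA1 at up to 22 counts limits any statement on it.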

Other observations

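Of 20 genes of fatty acid oxidation, the route opposite to the synthesis described above, all were tested. After 2 days of VIC-1911, 3 were higher and 1 lower (15% and 5%, against 7.50% and 7.19% of all genes tested), among them ETFA, a subunit of the electron transfer flavoprotein (log2 fold change 0.15 ± 0.05, adjusted p = 0.0181), and ETFDH, which passes electrons to ubiquinone (log2 fold change -0.38 ± 0.08, adjusted p = 0.00137). After 7 days, 7 were higher and 6 lower under VIC-1911 (35% and 30%, against 26.6% and 25.8% of all genes, median 0.06). Olaparib raised 8 and lowered 7 (40.0% and 35%, against 28.1% and 25.9%, median -0.02), and the combination raised 10 and lowered 7 (50% and 35%, against 28.6% and 28.0%, median 0.02). ACADL, a long-chain acyl-CoA dehydrogenase, rose under VIC-1911 (log2 fold change 0.87 ± 0.12, adjusted p = 6.4e-07), olaparib (log2 fold change 1.75 ± 0.11, adjusted p = 6.7e-14) and the combination (log2 fold change 1.91 ± 0.11, adjusted p = 3.7e-15). CPT1A, which loads fatty acids for entry into mitochondria, fell under olaparib (log2 fold change -0.50 ± 0.04, adjusted p = 3.8e-11) and the combination (log2 fold change -0.63 ± 0.04, adjusted p = 1.4e-13). PPARA, a receptor that induces genes of the pathway, fell under the combination (log2 fold change -0.74 ± 0.08, adjusted p = 2.5e-09), and HADH, a dehydrogenase of the mitochondrial cycle, rose (log2 fold change 0.74 ± 0.07, adjusted p = 4.7e-10).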
